A study of Mus musculus with 6 samples.

Results

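Aldo-keto reductases are enzymes that reduce aldehydes and ketones with NADPH. In all, 10 genes of the family were examined in mouse liver with and without small Maf factors. The genes were taken as a fixed list (Akr1a1, Akr1b3, Akr1b7, Akr1b8, Akr1c6, Akr1c13, Akr1c14, Akr1c19, Akr1c20 and Akr7a5), chosen with earlier results of these data known. They were found on the arrays through the transcript accession of each probe. Of the 10 listed genes, 8 were matched to a probe, among 21059 genes and unmatched transcripts tested in all. Akr1c13 and Akr1c20 were matched to no probe and have no value here. The 8 genes were read by 10 probes, with 2 probes each for Akr1b3 and Akr1c19, and all 10 probes were well above background on all 6 arrays, so every matched gene passed the filter on dim signals.

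RNA was measured on 6 Agilent arrays with Cy3 label, each from the liver of a mouse aged 5 weeks. The control group was labelled wild type (n = 3) and the other group carried a knockout of small Maf genes restricted to the liver (sMaf CKO, n = 3). All mice shared a mixed background of 129Sv/J, C57BL/6J and ICR and were kept pathogen-free with chow and water freely available. The sources used here do not give which small Maf genes were deleted or the Cre driver, and the design text calls the RNA samples independent.

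The family works in several pathways of hepatocytes. The Akr1b enzymes, of which aldose reductase is the best known, take on sugars and lipid aldehydes, the Akr1c enzymes act as hydroxysteroid dehydrogenases and also reduce foreign carbonyl compounds, and Akr1a1 and Akr7a5 reduce small aldehydes. Several aldo-keto reductase genes are textbook targets of NRF2, a bZIP factor that binds antioxidant response elements in DNA as a dimer with a small Maf protein. Small Maf proteins also pair with Bach repressors at the same kind of element, so the heterodimers of a small Maf can activate or repress.

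Slide 1 held replicates 1 and 2 of both genotypes and slide 2 held replicate 3 of both, and the scan times divided the arrays in the same way. The 75th percentile of the processed signal ranged from 483.4 to 960.5 over the arrays, with the highest value on sMaf CKO array 1, and the share of probes well above background from 58.0% to 73.6%. The signal of Mafg was 25.9-fold lower in sMaf CKO liver (adjusted p = 0.0533 in limma's test over all genes), with log2 levels (relative to the 75th percentile of each array, here and throughout) of 1.88, 1.87 and 2.23 in controls against -2.97, -4.36 and -0.76 in the knockout, the last being replicate 3. Maff (0.15) and Mafk (0.21) showed log2 differences within their standard errors (0.51 and 0.29), and whether any of these probes lies in a deleted part of its gene is not known. Of 12 hepatocyte markers listed, 9 were tested and all 9 were well above background on all 6 arrays. Xist was well above background on all 6 arrays by each of its 4 probes, while the probes of the Y-linked Ddx3y, Kdm5d and Uty were above it on 0 arrays and that of Eif2s3y on 1, control array 3.

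The 250 bases before the annotated start of 5 genes are shown, because 4 neighbouring Akr1b genes had higher signals in sMaf CKO liver and Akr1c14 and Akr7a5 had the lowest differences among the listed genes. Sequences are those of RefSeq on GRCm38.p6, from a table in which 8 of the 10 listed genes were matched (Akr1b3 and Akr1c20 were not), and each is written 5′ to 3′ on the strand of its gene, which is the plus strand for all 5. They lie at chr6:34412112-34412361 (Akr1b7), chr6:34383997-34384246 (Akr1b10, a neighbour outside the list), chr6:34353896-34354145 (Akr1b8), chr13:4059341-4059590 (Akr1c14) and chr4:139310494-139310743 (Akr7a5). Capitals mark every match, on either strand, to the letters listed after the sequences.
Akr1b7: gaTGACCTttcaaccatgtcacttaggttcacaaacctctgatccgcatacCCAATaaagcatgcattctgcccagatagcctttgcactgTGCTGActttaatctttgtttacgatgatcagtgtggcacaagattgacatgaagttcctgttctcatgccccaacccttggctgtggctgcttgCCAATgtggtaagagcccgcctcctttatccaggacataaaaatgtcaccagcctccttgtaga
Akr1b10: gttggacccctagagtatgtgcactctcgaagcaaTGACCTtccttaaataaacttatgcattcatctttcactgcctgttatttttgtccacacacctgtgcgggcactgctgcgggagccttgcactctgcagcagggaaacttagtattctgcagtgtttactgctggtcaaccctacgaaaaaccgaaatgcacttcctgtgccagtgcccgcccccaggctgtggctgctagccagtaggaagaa
Akr1b8: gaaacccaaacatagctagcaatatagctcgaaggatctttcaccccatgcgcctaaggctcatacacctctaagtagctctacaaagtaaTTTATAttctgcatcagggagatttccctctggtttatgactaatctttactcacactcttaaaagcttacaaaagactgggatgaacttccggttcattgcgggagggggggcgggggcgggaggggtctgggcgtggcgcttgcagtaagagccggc
Akr1c14: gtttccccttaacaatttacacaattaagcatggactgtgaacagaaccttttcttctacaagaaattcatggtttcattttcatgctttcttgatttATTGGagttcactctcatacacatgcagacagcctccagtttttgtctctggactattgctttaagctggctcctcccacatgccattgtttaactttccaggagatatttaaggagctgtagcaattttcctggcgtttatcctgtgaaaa
Akr7a5: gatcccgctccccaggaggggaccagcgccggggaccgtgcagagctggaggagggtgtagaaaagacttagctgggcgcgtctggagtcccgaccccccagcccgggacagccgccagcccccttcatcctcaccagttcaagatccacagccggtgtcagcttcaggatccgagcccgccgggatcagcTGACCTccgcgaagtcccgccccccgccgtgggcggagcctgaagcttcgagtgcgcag

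Both strands were searched for TGACNNNGC (the core of an antioxidant response element) and TGACTCA (the AP-1 element, which can overlap TGCTGA). Also searched for were TGCTGA (a half-site of a Maf recognition element), AGGTCA (a nuclear receptor half-site), TATAAA and CCAAT. TGACNNNGC was found in 0 of the 8 windows of listed genes and in 10.2% of all 32851 windows of this length, and TGACTCA in 0 of 8 and 4.46%. TGCTGA was present in the window of Akr1b7 alone among the 8, from 159 to 154 bases before the start, and in 16.1% of all windows. AGGTCA was found on the opposite strand in Akr1b7, from 248 to 243 bases before the start, in Akr7a5, from 59 to 54 bases before it, and in 14% of all windows. TATAAA was found in Akr1b8, on the opposite strand, and in Akr1c6, against 12.4% of all windows, and CCAAT in 4 of 8 (Akr1b7, Akr1c14, Akr1c19 and Akr1c6), against 33.8%. The windows of Akr1b7 and Akr1b10 shared the run GGCTGTGGCTGCT of 13 bases, starting 79 and 28 bases before their starts, where the median longest run shared by a pair of Akr windows was 8 bases. These are matches of letters only, and no binding was measured.

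No listed aldo-keto reductase passed the test over all genes, although the signals of 6 of the 8 did not overlap between the genotypes. Akr1b7, Akr1b3 and Akr1b8 were higher on every sMaf CKO array than on any control array, and Akr1c14, Akr7a5 and the brighter probe of Akr1c19 were lower on every one. Groups were compared with limma on log2 signals, scaled in each array to its 75th percentile, with Benjamini-Hochberg adjustment over all genes at a threshold of 0.05. By that rule 0 of 8 genes were called, against 0.541% of all genes tested. Before adjustment, 6 of 8 had a p under 0.05, against 16.8% of all genes, with 3 higher (8.71% of all genes) and 3 lower (8.1%). The 6 genes without overlap (3 higher, 3 lower) stand against 22.9% of all genes, with 11.3% higher and 11.5% lower in sMaf CKO liver. Because the list was chosen with earlier results of these data known, these shares are no test of it. The median log2 difference of the 8 genes was -0.35, beside -0.05 over all genes, and the differences ran from -1.34 to 2.75.

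**Figure D1:**
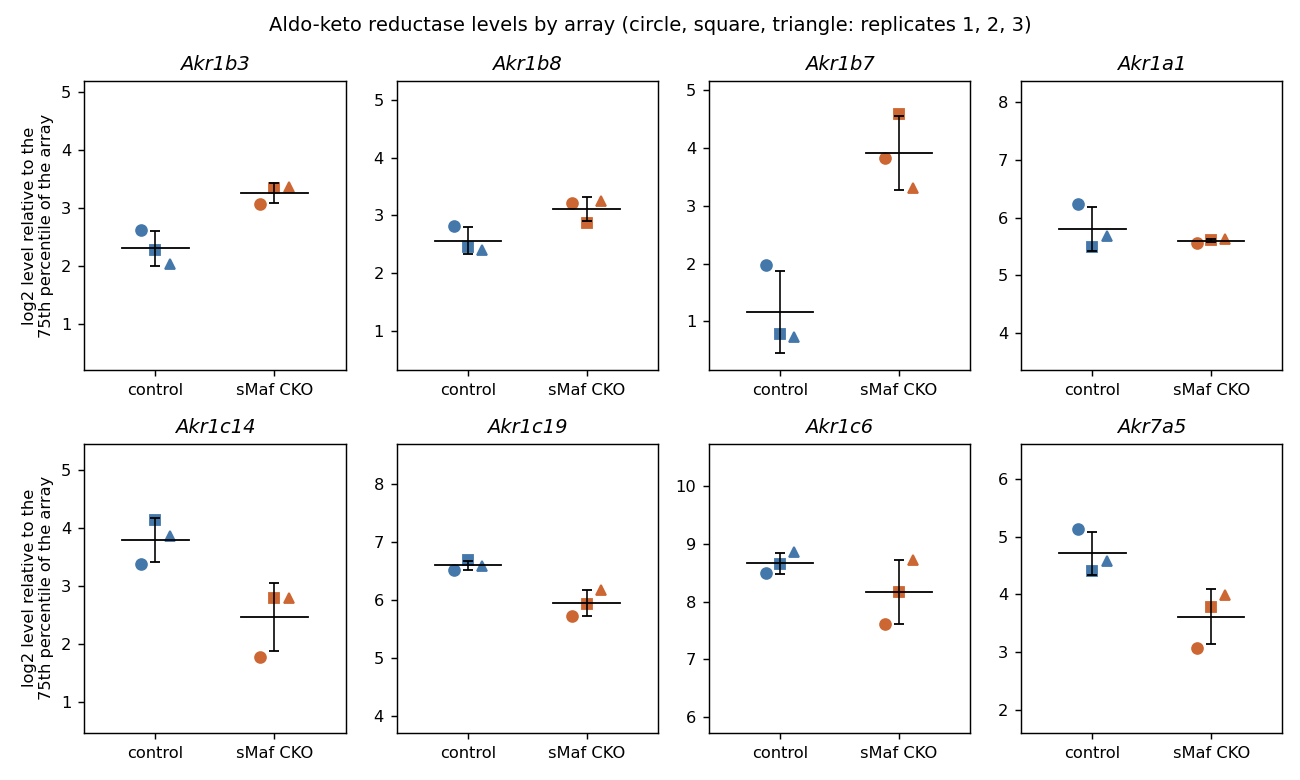
Log2 level of each matched aldo-keto reductase, scaled to the 75th percentile of its array (vertical axes, each spanning the same range), by genotype. Points are arrays, horizontal lines are means and error bars are SD (n = 3 per genotype); the groups do not overlap in Akr1b3, Akr1b8, Akr1b7, Akr1c14, Akr1c19 and Akr7a5 and overlap in Akr1a1 and Akr1c6.

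The Akr1b genes read higher in sMaf CKO liver, under every scaling tried, led by Akr1b7. Akr1b7 encodes a lipid aldehyde reductase known from the vas deferens and adrenal cortex. In control mice 1, 2 and 3 its log2 level was 1.98, 0.78 and 0.72, against 3.83, 4.59 and 3.31 in sMaf CKO mice 1, 2 and 3. Control array 1 lay above the other controls, yet the groups were 1.33 apart at their nearest points. The means were 1.16 ± 0.71 (SD, n = 3) and 3.91 ± 0.64 (SD, n = 3), a 6.73-fold higher signal in sMaf CKO liver. The log2 difference of 2.75 (SE 0.44, 95% confidence interval 1.72 to 3.78) just missed the threshold in limma's test (adjusted p = 0.0523) and ranked 126th of 21059 genes by p. It was 2.83 within slide 1 and 2.59 within slide 2, where 1 array faces 1. With slide as a block Akr1b7 passed (adjusted p = 0.0236), the only 1 of 8 listed genes to do so, against 1.61% of all genes. It was also the only listed gene to pass with median scaling (adjusted p = 0.0351, against 1.2% of all genes), with trend and robust eBayes (0.0254, 1.46%), with probes above background on all 6 arrays (0.0254, 1.55%) and without sMaf CKO replicate 3 (0.0312, 1.4%). Over 18 alternatives its adjusted p ran from 0.0168 to 0.177, with 7 under the threshold, so that the call of this gene turns on the setting while the size of the difference, 2.41 to 3.23, does not.

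Akr1b3, which encodes aldose reductase, the enzyme that turns glucose into sorbitol, was read by 2 probes of like difference. By the brighter probe its log2 level was 2.62, 2.27 and 2.02 in controls against 3.06, 3.34 and 3.36 in sMaf CKO liver, so that the lowest sMaf CKO array was 0.44 above the highest control. The log2 difference was 0.95 (SE 0.24, interval 0.40 to 1.51), or 1.93-fold, and did not pass limma's test (adjusted p = 0.129). The dimmer probe read 1.07, 0.78 and 0.21 in controls and 1.49, 1.68 and 1.42 in sMaf CKO liver, again without overlap, a log2 difference of 0.84. The difference between the probes shifted by -0.11 between genotypes (exact two-sided permutation p = 0.5 over 20 assignments of the 6 arrays). By the brighter probe the gene differed by 0.76 within slide 1 and 1.34 within slide 2. With array weights Akr1b3 passed beside Akr1b7 (adjusted p = 0.0498), making 2 of 8 listed genes against 2.51% of all genes.

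Akr1b8, a reductase of retinal and unsaturated aldehydes that growth factors induce in fibroblasts, showed the smallest of the 3 differences. Log2 levels were 2.83, 2.45 and 2.40 in controls against 3.21, 2.87 and 3.25 in the knockout. The groups did not overlap, but sMaf CKO array 2 and control array 1 were 0.04 apart. The log2 difference of 0.55 (SE 0.23, interval 0.01 to 1.08), or 1.46-fold, did not pass limma's test (adjusted p = 0.287). Slide 1 alone gave 0.40, slide 2 alone 0.85 and spike-in scaling 0.88.

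These genes are neighbours. In the RefSeq gene order on chromosome 6, Akr1b3, Akr1b8, Akr1b10 and Akr1b7 form an unbroken run of 4 protein-coding genes. Akr1b10, the neighbour outside the list, was picked out after its values were seen. It read 1.18, 0.85 and 0.55 in controls against 1.82, 1.78 and 1.48 in sMaf CKO liver, again without overlap. The log2 difference was 0.84 (SE 0.24), which did not pass limma's test (adjusted p = 0.167). All 4 genes of the run therefore read higher on every sMaf CKO array than on any control array, as did 11.3% of all genes tested. The probe sequences were not used here, so whether a probe of a paralog reads its neighbours as well was not tested.

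**Figure D2:**
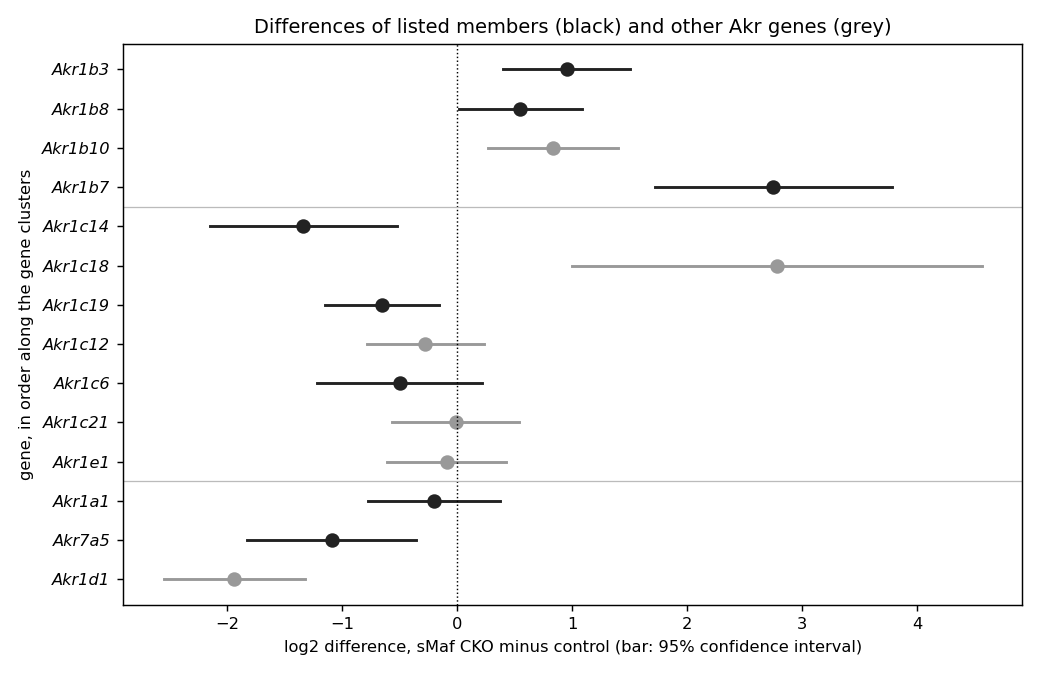
Log2 difference between sMaf CKO and control liver (horizontal axis) for the 8 listed genes in black and 6 other Akr genes in grey, with 95% confidence intervals from the limma fit (3 arrays per genotype). Genes above the upper grey line are in order along chromosome 6 and those between the lines in order along chromosome 13; the 4 Akr1b genes have intervals above 0, while the chromosome 13 run holds Akr1c14 at -1.34 next to Akr1c18 at 2.78.

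The Akr1c genes of the list read lower by their main probes. Akr1c14 encodes a hydroxysteroid dehydrogenase that acts on androgens and progestins. The log2 level was 3.37, 4.14 and 3.86 in controls against 1.78, 2.80 and 2.80 in the knockout, with sMaf CKO array 1 the lowest and a gap of 0.58 between the groups. The log2 difference of -1.34 (SE 0.35, interval -2.15 to -0.52), or 2.53-fold lower, did not pass limma's test (adjusted p = 0.143). It was -1.47 within slide 1 and -1.07 within slide 2, and its adjusted p over the alternatives ran from 0.0565 to 0.584.

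Akr1c6, an oestradiol and androgen dehydrogenase also known as Hsd17b5, overlapped between the genotypes. Controls had log2 levels of 8.49, 8.64 and 8.85 and sMaf CKO livers 7.60, 8.17 and 8.71. sMaf CKO array 3 lay among the controls and array 1 lowest. The log2 difference was -0.50 (SE 0.31, interval -1.22 to 0.22; limma adjusted p = 0.456), with -0.68 within slide 1 and -0.14 within slide 2. It was -0.22 without sMaf CKO replicate 1 and -0.77 without sMaf CKO replicate 3, and it shrank to -0.11 with quantile normalization and -0.17 with spike-in scaling.

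Akr1c19 was the listed gene whose probes disagreed. By the brighter probe, the one used in the test, its log2 level was 6.53, 6.69 and 6.58 in controls against 5.72, 5.94 and 6.17 in sMaf CKO liver. That is a log2 difference of -0.66 (SE 0.21, interval -1.15 to -0.16; limma adjusted p = 0.201), which was -0.27 with quantile normalization and -0.33 with spike-in scaling. By the dimmer probe it was 3.69, 3.69 and 3.84 in controls and 3.85, 4.44 and 4.77 in sMaf CKO liver, a log2 difference of 0.61 in the other direction. Neither probe overlapped between genotypes, although by the dimmer one sMaf CKO array 1 lay next to control array 3. The dimmer probe minus the brighter one was -2.84, -2.99 and -2.74 in controls against -1.87, -1.50 and -1.40 in sMaf CKO liver, a shift of 1.27 between genotypes. The exact two-sided permutation p of this shift was 0.1, the smallest that 3 arrays against 3 can give. With the mean of the 2 probes the log2 difference was -0.02, so the direction given for Akr1c19 holds for 1 probe and not for the gene.

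**Figure D3:**
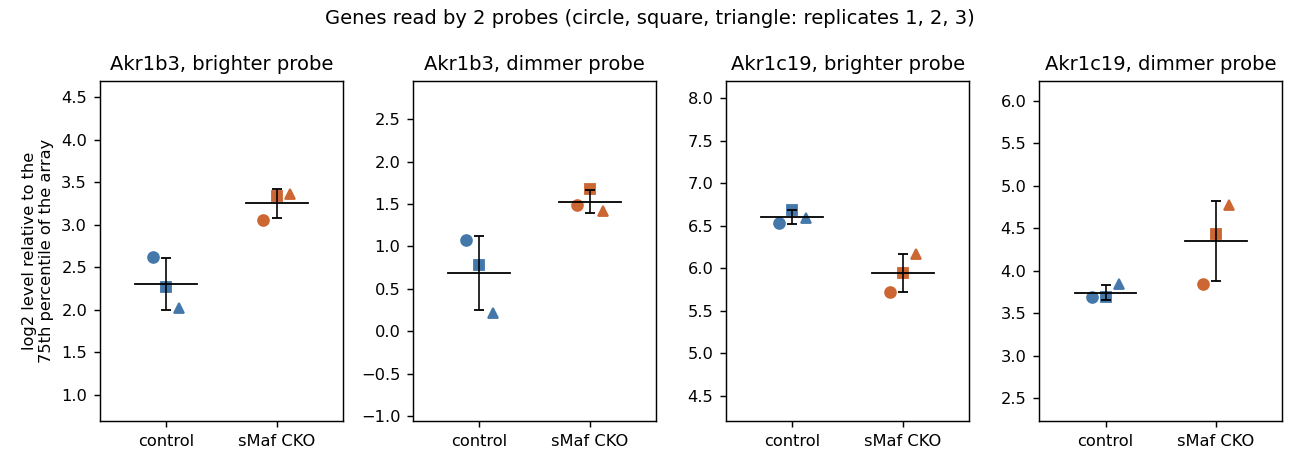
Log2 level, scaled to the 75th percentile of each array, by each of the 2 probes of Akr1b3 and of Akr1c19, by genotype. Points are arrays, horizontal lines means and error bars SD (n = 3); both probes of Akr1b3 are higher in sMaf CKO liver (0.95 and 0.84), whereas those of Akr1c19 differ in direction (-0.66 and 0.61).

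Most of the Akr1c genes lie together on chromosome 13, in an unbroken RefSeq run of 9 protein-coding genes from Akr1c14 to Akr1e1, of which 7 were tested. Akr1c18, which encodes a progesterone-inactivating dehydrogenase and was picked out after its values were seen, lies next to Akr1c14. It read -2.81, 0.37 and -2.13 in controls against 1.65, 0.59 and 1.53 in the knockout. Control array 2 lay close to sMaf CKO array 2, and the log2 difference of 2.78 had an SE of 0.77 (limma adjusted p = 0.155). Akr1c21, above background on 4 of 6 arrays, differed by -0.01 and Akr1e1 by -0.09, and both overlapped. Akr1c12 was read by 2 probes. Its brighter probe, the one used in the test, differed by -0.28 and overlapped. The dimmer probe read 4.11, 4.16 and 4.08 in controls against 3.56, 3.71 and 3.74 in sMaf CKO liver. That is a log2 difference of -0.44, without overlap. Unlike the run on chromosome 6, the tested genes of this run thus include large differences of opposite sign side by side. Before their annotated starts, Akr1c13 and Akr1c12 share an identical run of 75 bases, the longest shared by any pair of Akr windows, and of this pair Akr1c12 alone was measured.

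Akr7a5 and Akr1a1, both on chromosome 4, reduce small aldehydes. Akr7a5 handles the dialdehyde of aflatoxin and succinic semialdehyde. Controls read 5.13, 4.41 and 4.58 on the log2 scale and sMaf CKO livers 3.08, 3.78 and 3.99, without overlap and with sMaf CKO array 1 lowest. The log2 difference of -1.09 (SE 0.32, interval -1.83 to -0.35), or 2.13-fold lower, did not pass limma's test (adjusted p = 0.167), with -1.34 within slide 1, -0.59 within slide 2 and, without sMaf CKO replicate 1, -0.82. Akr1a1, the aldehyde reductase that feeds glucuronate into ascorbate synthesis in mice, read 6.23, 5.49 and 5.69 in controls against 5.57, 5.61 and 5.63 in sMaf CKO liver. The sMaf CKO arrays lay within the range of the controls, and the log2 difference was -0.20 (SE 0.25, interval -0.78 to 0.38; limma adjusted p = 0.720). Its sign turned under quantile normalization (0.16), under spike-in scaling (0.13) and without control replicate 1 (0.014).

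**Figure D4:**
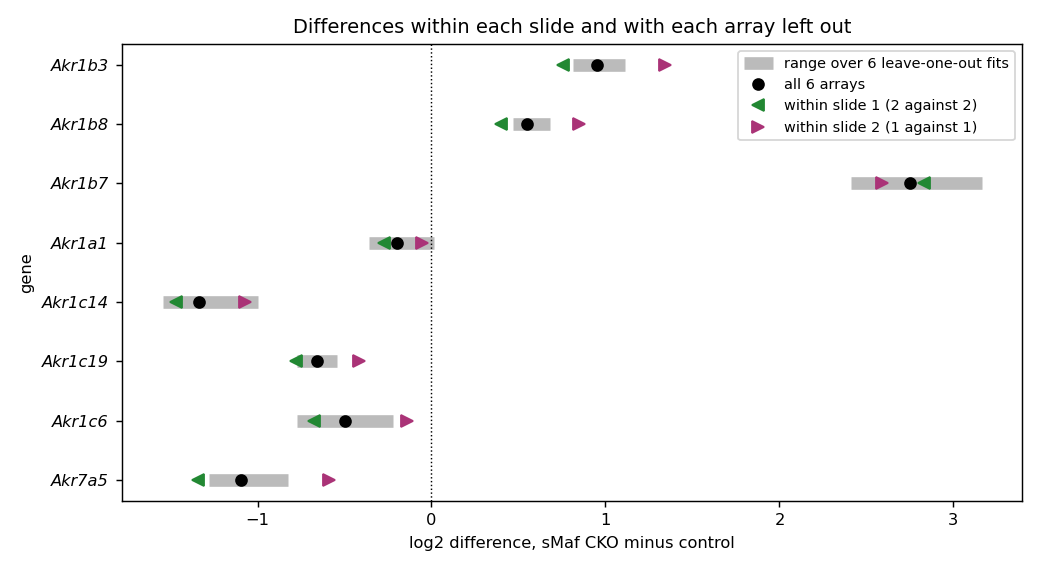
Log2 difference between sMaf CKO and control liver (horizontal axis) for each listed gene over all 6 arrays, within slide 1 (2 arrays against 2), within slide 2 (1 against 1) and as the range over 6 fits that each leave out 1 array. Within each slide every gene kept its sign; Akr1b3 and Akr1b8 were further from 0 within slide 2 (1.34 and 0.85) and Akr7a5 was nearer to it (-0.59).

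The lowest value of Akr1c14, Akr1c6, Akr7a5 and the brighter Akr1c19 probe was on sMaf CKO array 1. That array also had the highest 75th percentile of signal. The 9 tested hepatocyte markers all had negative differences (median -0.42, with -0.59 within slide 1 and -0.08 within slide 2, and 0 called). Their summed level, the log2 of the sum of their linear levels, in which the brightest genes weigh most, was between 11.36 and 11.57 in controls. In sMaf CKO liver it was between 10.69 and 11.49, lowest on that same array. In whole liver, fewer cells of a type and less RNA per cell cannot be told apart, and the part of these values in the lower Akr signals was not tested. In the other direction, 7 of 8 macrophage markers were tested and all 7 had positive differences (2 called, Trem2 at 4.18 and Gpnmb, which was well above background on 0 of 3 control arrays and read at least 22.2-fold higher). The summed level of these markers was from 6.24 to 6.90 in controls and from 7.15 to 7.67 in sMaf CKO liver. Cholangiocyte markers had 7 positive differences of 7 (0 called, summed level 3.31 to 3.62 against 3.52 to 5.65) and stellate cell markers 6 of 6 (0 called, 4.14 to 4.74 against 4.65 to 4.91). Endothelial markers had 5 negative differences of 6 and erythroid markers 4 positive of 6, with 0 called and overlapping sums (5.55 to 6.08 against 5.35 to 5.77, and 7.83 to 8.98 against 8.26 to 9.22). Their part in the higher Akr1b signals was not tested.

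Akr1b7 is also abundant in the adrenal cortex, and Akr1b8 and Akr1b10 in the gut, so markers of these tissues were read on the same arrays. Of the steroidogenic markers, Cyp11a1 was well above background on 0 of 6 arrays, and the 5 tested genes had a median difference of -0.44 with 0 called. Their summed level was 1.40 to 1.79 in controls and 0.67 to 2.90 in sMaf CKO liver. Of the intestinal and gastric markers, Cdx1 and Cdx2 were well above background on 0 of 6 arrays, and the 5 tested genes had a median of 0.01 with 0 called (summed level 4.54 to 5.43 against 4.56 to 5.77). Fabp2 made up most of this sum (4.30 to 5.21 against 4.31 to 5.55), so neither sum reads its list evenly.

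Other enzymes that share substrates with the family were read from lists of genes. Of the 6 other Akr genes tested, 1 passed limma's test, the bile acid enzyme Akr1d1, with a log2 difference of -1.94 (SE 0.26, adjusted p = 0.0382). Its levels were -0.35, -0.37 and -0.76 in controls against -2.32, -2.12 and -2.85 in the knockout, every knockout array below every control. Of 13 listed short-chain carbonyl reductases and related reductases, 12 were tested, and Cbr1 was matched to no probe. Of the 12, 0 passed limma's test, and 2 higher and 4 lower had a p under 0.05 before adjustment (8.71% and 8.1% of all genes), with a median of -0.37. The best-ranked were Ptgr1, which reduces unsaturated carbonyls (1.18, limma adjusted p = 0.108), and Hsd11b1, which regenerates active glucocorticoid (-1.15, adjusted p = 0.158).

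Akr1a1 and Akr1b3 belong to the glucuronate, ascorbate and polyol pathways, and 0 of the 10 other genes of these pathways passed limma's test. Before adjustment 1 higher and 3 lower had a p under 0.05 (8.71% and 8.1% of all genes), and the median was -0.62. Ugp2, which makes UDP-glucose, differed by -0.92 (adjusted p = 0.123), and Ugdh, which oxidises it to UDP-glucuronate, by 0.78 (adjusted p = 0.189). Of 15 listed hydroxysteroid dehydrogenases and steroid reductases outside the family, 14 were tested, and Hsd17b8 was matched to no probe. Of the 14, 13 had negative differences, and the median of the 14 was -0.66. Over all genes 11525 of 21059 were negative, and 1 of the 13, Hsd17b13, was at -0.003. Hsd3b1, listed with the steroidogenic markers and not counted here, differed by 0.31 (limma adjusted p = 0.822). By limma 0 of 14 passed, and before adjustment 9 lower genes and 1 higher had a p under 0.05, against 8.1% and 8.71% of all genes. The higher one was Srd5a2, which was well above background on 1 of 3 control arrays and overlapped between the genotypes. Hsd3b5 had the lowest of these values at -4.05 (SE 0.75, adjusted p = 0.0665), and Hsd17b6 differed by -0.97 (adjusted p = 0.124).

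The genes with the array profile nearest to that of Akr1b7 were ranked by the root mean square distance of log2 levels over the 6 arrays, each minus its control mean, among 14178 genes with a symbol. They were Vxn (distance 0.40), the glutathione S-transferase Gsta1 (0.44) and Rragd, a GTPase of lysosomal nutrient sensing (0.50). Vxn was well above background on 0 of 3 control arrays and its signal was at least 4.08-fold higher in sMaf CKO liver (limma adjusted p = 0.0184), where the floor of each control array was the higher of its own value and the lowest signal above background. Its distance rests on control values below background, and with those at the floor it was 0.89, beyond that of Gsta1 and Rragd. Gsta1 rose by 2.93 in log2 signal (limma adjusted p = 0.0117), and Rragd differed by 2.25 (adjusted p = 0.0503). For Akr1c14 the nearest were Car8 (0.18), Olfr1394 (0.19) and Atp6v0d2 (0.20), which differed by -1.22, -1.36 and -1.36, none passing (limma adjusted p = 0.131, 0.0875 and 0.0769).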

How the data were processed

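Liver RNA of 6 mice was hybridised to 1 array each. Per the file headers, the authors extracted spot intensity values with Agilent Feature Extraction 10.7.3.1, and the deposited processed intensity is background-subtracted and detrended array by array. The headers record no scaling of arrays to each other. The deposited value table is on a log2 scale. Its making is not described by the labels or headers, but its columns followed the scanner values scaled to the 75th percentile and centred on the median of each probe (r of at least 0.999985 over 41121 probes, 99% of differences within 0.0107), with column medians of 0.05, -0.02 and 0.08 for controls and -0.10, -0.11 and 0.09 for sMaf CKO arrays. Scale, centring and direction of that table are thereby settled.

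Log2 processed signals were averaged over spots of a probe, without control or outlier-flagged spots, and scaled to the 75th percentile of each array. The filter kept probes well above background on 3 or more of the 6 arrays (27859 of 41174). Probes were named by accession through a RefSeq table on GRCm38.p6 (26690 probes matched, 14484 not), and the brightest probe of a gene was used. The headers name another build, mm9, for the array design. The test of genotype, the only term in the model, was limma 3.58.1 under R 4.3.3. No depth in reads exists for arrays, and 3 arrays per group limit the precision. The p-values set each genotype difference against the variance between arrays of the same genotype, which limma moderates over all genes. In the main model that variance includes any difference between slides. The members and gene lists were chosen with earlier results of these data known. All listed genes are named, and of each pathway list up to 3 called genes or else the 2 with the smallest p, while other genes named were picked after their values were seen. Alternatives were other scalings, normexp (on median signals, offset 50), other filters, the value table, blocks for replicate and slide, array weights, other eBayes settings and each array left out. The fit was tested on simulated data. Replicate numbers 1 and 2 did not pair the samples (r of deviations 0.06 and 0.17). Across these numbers r was 0.29 for control 2 with sMaf CKO 1 and 0.01 for control 1 with sMaf CKO 2. For number 3 it was 0.42, but both arrays were on slide 2, so pairing and slide cannot be told apart. Control and sMaf CKO arrays on different slides had r from -0.37 to -0.07.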

Additional observations from a re-analysis of the deposited data

How the results depend on the processing

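Over 18 alternatives, 7 of the 8 aldo-keto reductases kept the sign of their difference, which for Akr1c19 is that of its brighter probe and came to -0.02 with the mean of its probes. The exception was Akr1a1, at 0.16 under quantile normalization, 0.13 under spike-in scaling and from -0.36 to 0.014 with 1 array left out, the last without control replicate 1. Spike-in scaling shifted the median of all genes by 0.33. The number of listed genes called went from 0 to 1, which was Akr1b7, with median scaling, a replicate block (1.38% of all genes called; adjusted p of Akr1b7 0.0355), slide as a block, trend and robust eBayes, and probes above background on all 6 arrays. It went to 2 with array weights, and from 0 to 1 over the fits that left out 1 array, with 1 without sMaf CKO replicate 3. Calls over all genes numbered 114, and 74 with normexp, 22 with quantile normalization, 252 with median scaling, 12 with spike-in scaling, 1 with no filter on dim probes, 267 with probes above background on all 6 arrays, 291 with a replicate block, 340 with slide as a block, 528 with array weights and 308 with trend and robust eBayes. With 1 array left out they numbered 6, 175 and 22 without control replicates 1, 2 and 3, and 3, 11 and 294 without sMaf CKO replicates 1, 2 and 3, and the cause was not tested. Of the 114 calls 71.1% were higher in sMaf CKO liver, against 81.8% with quantile normalization, 61.5% with slide as a block, 57.2% with array weights and, with 1 array left out, from 48.6% (without sMaf CKO replicate 3) to 86.4% (without control replicate 3). The replicate block changed no other call of a listed gene. The 3 arrays per genotype limit the precision of every value.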
